A study of Rattus norvegicus with 24 samples.

Results

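The response of the rat hippocampus 48 h after an ischemia operation, as far as both arms of a study on ischemic tolerance share it, was described by setting 4 arrays at 48 h against 4 arrays at 0 h. The arrays were chosen by their titles: SHAM at 48 h and TOL at 48 h, against SHAM at 0 h and TOL at 0 h, with 2 arrays in each group. They are 8 of the 24 arrays of a time course that also covered 1, 3, 12 and 24 h. All hold total RNA of rat hippocampus on an Affymetrix rat genome oligonucleotide array. The labels call the SHAM arm sensitive to hypoxia and the TOL arm tolerant of it, count the hours from an ischemia operation in both arms, 0 h included, and number the arrays of a group as a first and a second experiment. The strain, age and sex of the rats, the operation, what was done to make the TOL arm tolerant, and whether RNA was pooled are not stated in the labels. Whether 2 arrays of one group stand for different animals is not stated either, so the p-values rest on a spread between arrays that may be no more than technical. No array was taken at 48 h without an operation, so ischemia, surgery and the hours that passed cannot be told apart.

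Brain ischemia stops the supply of oxygen and glucose, and the pyramidal neurons of hippocampal field CA1 are among the most vulnerable cells of the brain, with a death that follows after a delay of days. A brief ischemia that does not kill can make the tissue tolerate a later one, a state that needs hours to days to develop and is accompanied by the synthesis of heat shock proteins. Over the same days microglia and astrocytes become reactive, and neurons adjust the genes for excitatory transmission and calcium signalling.

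The deposited values were background-subtracted intensities, given below in units after quantile normalisation. A noise level of 41.1 units was taken from the probe sets whose mean lay at or below 0, and values under it were set to it for folds and tests, so that a fold with 1 or more arrays of the lower time at the noise level is a lower bound. After filtering, 5410 probe sets were tested, of which 4424 had 1 gene symbol and stood for 3282 genes. Of the 5410, 4233 lay above the noise level on all 8 arrays. Across probe sets, both arrays of a group correlated with each other at r = 0.959 to 0.973. The experiment files placed the arrays on 2 hybridisation days that were not balanced over time: at 48 h 1 array was of the first day and 3 of the second, and at 0 h 3 were of the first day and 1 of the second. Both TOL arrays at 48 h carried a fluidics record that read as aborted by the user. The 7 tested markers of hippocampus included Hpca (hippocalcin), at 1247 to 1865 units at 48 h and 2742 to 4105 units at 0 h, and Nrgn (neurogranin), at 3992 to 4649 units at 48 h and 4452 to 5695 units at 0 h. The dopamine receptor Drd1, a marker of striatum, was at 39.1 to 61.4 units at 48 h and 22.2 to 81.2 units at 0 h.

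At 48 h, 869 of the 5410 probe sets (16.1%) differed from 0 h at an adjusted p under 0.05 (limma, arm as a block). Of these, 454 were higher at 48 h (8.39% of those tested) and 415 lower (7.67%). With each array divided by its median in place of quantile normalisation, 364 were higher and 595 lower, and the median log2 difference over all probe sets tested was -0.10, against -0.03 with quantiles. The median absolute log2 difference of the 869 was 0.72, and 215 of them differed by at least 1 on the log2 scale. In 801 of the 869, all 4 arrays at 48 h lay on one side of all 4 arrays at 0 h, which held for 1345 of all probe sets tested (24.9%). By gene, each represented by its probe set with the highest mean, 487 of 3282 changed (14.8%): 259 rose (7.89%) and 228 fell (6.95%), and for 784 genes (23.9%) the arrays of the 2 times did not overlap. The median log2 difference over all genes tested was -0.02. In each of 8 fits that left out 1 array in turn, 332 of the 869 passed again, and 33 passed in none of them. Genes named below as having risen or fallen passed in all 8 of these fits unless it is said otherwise.

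With the hybridisation day added as a block, 243 probe sets passed, 234 of them among the 869. All 869 kept their sign in that fit, with a median absolute log2 difference of 0.67. Within the first day alone 868 kept their sign, and within the second day 867, with medians of 0.77 and 0.58. The 869 were chosen on these same arrays, so that kept signs say nothing about the part of the day. How much of any single difference belongs to the day was not tested beyond these fits. For each gene list below with members that passed, the count with the day as a block stands beside the count without it. The range of counts over the 8 fits that left out 1 array is given as well. Set beside these lists, 7.89% of all genes tested rose and 6.95% fell. Over all probe sets tested, the 869 calls became 243 with the day as a block and 416 to 1075 without 1 array. Without the 2 TOL arrays with the aborted record, 293 probe sets passed, 150 higher and 143 lower at 48 h, 216 of them among the 869, and 48 h was then represented by SHAM alone. In that fit 1 microglia and macrophage marker was higher and 1 lower, 3 genes of reactive glia and 0 astrocyte markers were higher, and 0 cytokine and chemokine genes were higher and 1 lower. Of heat shock genes 4 were higher, of complement, antigen presentation and interferon genes 6 were higher, and of calcium handling genes and glutamate receptors 6 and 4 were lower.

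**Figure D1:**
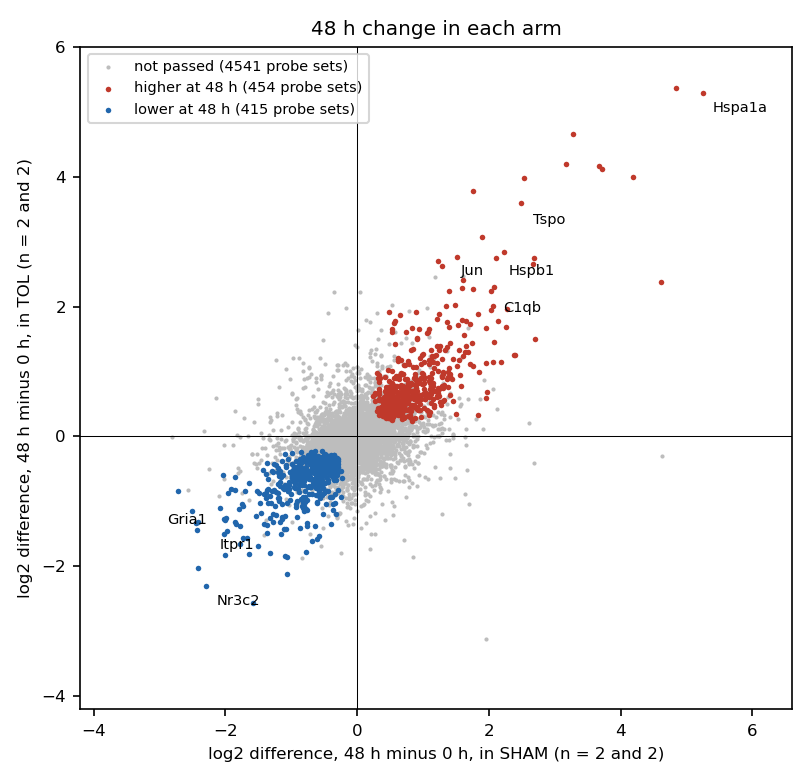
Log2 difference, 48 h minus 0 h, of each of 5410 probe sets in SHAM (horizontal axis, 2 arrays at each time) and in TOL (vertical axis, 2 arrays at each time), with values under the noise level set to it. Red points (454) are higher and blue points (415) lower at 48 h in the fit over both arms, and grey points did not pass. All coloured points lie to the upper right or lower left of 0, which their choice over both arms together favours.

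The arms share no array, so the difference in each can be read alone. The spread used to test it was estimated over both arms. In TOL, 196 probe sets passed (3.62%), and in SHAM 476 passed (8.8%). Of the 196 called in TOL, 179 (91.3%) had the same sign in SHAM, and of the 476 called in SHAM, 426 (89.5%) had the same sign in TOL, against 68.2% of all 5410 tested. Called in both arms were 115 probe sets, 111 of them with the same sign. Across the 5410 probe sets, the log2 differences of the arms correlated at r = 0.589, where the points are probe sets of the same arrays and the 2 arms have the same imbalance of 1 array between the hybridisation days. For no probe set did the 48 h change differ between TOL and SHAM at an adjusted p under 0.05 (0.0%, limma interaction term), although 568 had an unadjusted p under 0.05. The probe set of Syt5, a synaptotagmin of secretory vesicles, came closest, together with others at the same adjusted p of 0.0538. It had 59.1 and 82.7 units in TOL at 48 h, and 450.3 and 829.7 units in TOL at 0 h. SHAM had 383.9 and 428.9 units at 48 h, and at 0 h it had 142.2 and 76.5 units. The log2 change of Syt5 in TOL minus that in SHAM was -5.09 (SE 0.56), and its arrays moved in opposite directions in the 2 arms.

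Heat shock genes encode chaperones, proteins that keep others from aggregating and help them refold, and they are switched on by heat shock factor 1 when unfolded protein builds up. Of 23 tested heat shock proteins and chaperones, 10 rose and 0 fell, with 5 to 10 rising over the fits without 1 array and 6 with the day as a block. The count was 5 without SHAM 48 h replicate 1, and 6 without SHAM 48 h replicate 2, TOL 48 h replicate 2 or either SHAM array at 0 h. The list's median log2 difference was 0.44.

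Hspa1a, the inducible Hsp70 chaperone, was at 1529 and 1585 units in SHAM at 48 h and at 1681 and 1529 units in TOL at 48 h. At 0 h it was at 24.9 and 7.63 units in SHAM and at 22.7 and 12.8 units in TOL, below the noise level on all 4 arrays. It was therefore at least 38.4-fold higher at 48 h (log2 difference at least 5.26, adjusted p = 7.12e-08), the largest lower bound among the genes that passed. The probe set may not separate Hspa1a from its near-identical copy Hspa1b. Hsph1, a large Hsp70 relative that works as its nucleotide exchange factor, had 3563 and 3306 units in SHAM and 2943 and 3726 units in TOL at 48 h, against 990.4 and 1098 units in SHAM and 1046 and 959.6 units in TOL at 0 h. Its log2 difference was 1.72 (SE 0.11, adjusted p = 0.000427), and the times were far apart on every array. Hspb1, the small heat shock protein Hsp27 that is also made by reactive astrocytes, had 1735, 1103, 2673 and 1326 units on the SHAM and TOL arrays at 48 h and 304.6, 338.6, 310.1 and 253.1 units at 0 h. It rose by 2.43 on the log2 scale (SE 0.27, adjusted p = 0.00247), and of its other 3 probe sets 2 rose and 1 did not pass (log2 -0.04). The mitochondrial chaperonin Hspd1 rose by 0.80 (SE 0.09, adjusted p = 0.00299), with 1939 ± 114 units at 48 h and 1110 ± 31.3 units at 0 h (SD, n = 4). The Hsp40 partner Dnaja1 rose by 0.61 (SE 0.10, adjusted p = 0.00769), while its second probe set did not pass (log2 0.32). Stip1, which bridges Hsp70 and Hsp90, rose by 0.69, but its adjusted p was 0.0540 to 0.0550 without SHAM 0 h replicate 1, SHAM 0 h replicate 2 or SHAM 48 h replicate 1.

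Heat shock factor 1 binds inverted repeats of GAA. Promoters of the tested chaperone genes were searched on both strands for GAANNTTCNNGAA, 3 such units in a row, in the window of 250 bases before to 50 after the gene start (RefSeq, GRCr8). Of the 23 tested chaperone genes 19 had a promoter in the table, and 5 of these held the motif, against 267 of 33469 promoters of all genes (0.798%). It stood in 3 of the 9 that rose (Hsph1, Hspd1 and Dnaja1) and in 2 of the 10 that did not pass (Hspe1 and Chordc1). The 3 promoters of genes that rose are printed 5′ to 3′ on the gene's strand with the matches in capitals, to show where the motif lies: 36 bases before the start in Hsph1, 9 bases after it in Dnaja1, and in 2 overlapping copies that begin 242 and 237 bases before it in Hspd1. The windows are chr12:10427118-10427417 (plus strand), chr5:60638154-60638453 (plus strand) and chr9:64083988-64084287 (minus strand).
Hsph1: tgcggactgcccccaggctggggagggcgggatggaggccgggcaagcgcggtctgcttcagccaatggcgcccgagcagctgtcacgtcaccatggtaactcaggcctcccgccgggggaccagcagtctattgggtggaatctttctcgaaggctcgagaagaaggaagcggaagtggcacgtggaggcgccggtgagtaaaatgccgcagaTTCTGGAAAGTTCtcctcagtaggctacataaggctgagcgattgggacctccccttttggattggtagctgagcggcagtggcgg
Dnaja1: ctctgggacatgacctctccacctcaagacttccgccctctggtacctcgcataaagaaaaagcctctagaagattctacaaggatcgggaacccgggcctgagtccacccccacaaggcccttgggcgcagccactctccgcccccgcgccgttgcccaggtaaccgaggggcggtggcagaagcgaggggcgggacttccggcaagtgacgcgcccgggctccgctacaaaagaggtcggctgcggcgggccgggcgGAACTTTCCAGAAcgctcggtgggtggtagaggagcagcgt
Hspd1: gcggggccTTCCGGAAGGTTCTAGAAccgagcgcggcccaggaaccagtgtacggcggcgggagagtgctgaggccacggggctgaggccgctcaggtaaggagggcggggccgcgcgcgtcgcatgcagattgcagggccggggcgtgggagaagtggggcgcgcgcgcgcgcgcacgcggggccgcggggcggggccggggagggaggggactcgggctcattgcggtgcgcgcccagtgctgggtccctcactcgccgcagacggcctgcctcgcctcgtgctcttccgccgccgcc

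Hspe1 and Chordc1 were taken up for the motif after their values were seen. Hspe1, the co-chaperonin of Hspd1, is transcribed away from Hspd1 on the other strand, and the 2 windows overlap and share the matches. By its brightest probe set Hspe1 was at 1608 ± 189 units at 48 h and 1332 ± 301 units at 0 h and did not pass (log2 0.29, adjusted p = 0.274), while its second probe set rose by 0.64 (adjusted p = 0.00748). Chordc1, an Hsp90 partner, was at 371.6 ± 25.5 units at 48 h and 330.9 ± 48.9 units at 0 h and did not pass (log2 0.18, adjusted p = 0.377). A match describes the letters of the window and does not show that the factor binds there.

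Other stress genes rose with them. Of 14 tested genes of endoplasmic reticulum stress 3 rose and 0 fell (2 to 3 without 1 array, 2 with the day as a block), with a list median of 0.13. Ppp1r15a (Gadd34), which leads a phosphatase to the initiation factor eIF2α and so restarts protein synthesis after stress, had 221.1, 198.5, 214.1 and 224.1 units at 48 h and 86.9, 79.7, 89.6 and 85.0 units at 0 h in the order SHAM, SHAM, TOL, TOL. Its log2 difference was 1.33 (SE 0.09, adjusted p = 0.000427), with little spread within either time, and its second probe set did not pass (log2 0.05). Ddit3 (CHOP), a transcription factor of prolonged stress, rose by 0.90 (SE 0.11, adjusted p = 0.00326). Among 14 tested apoptosis genes and p53 targets 3 rose and 0 fell (2 to 3 without 1 array, 3 with the day as a block), with a median of 0.19. Ccng1 (cyclin G1), a p53 target, was at 2107 and 2638 units in SHAM and 1975 and 2409 units in TOL at 48 h, against 687.8 and 874.2 units in SHAM and 838.6 and 1023 units in TOL at 0 h, a rise of 1.42 (SE 0.16, adjusted p = 0.00247). Mdm2, the ubiquitin ligase that p53 induces and that degrades p53, rose by 1.55 (SE 0.19, adjusted p = 0.0038), to 231.6 ± 64.5 units at 48 h against 77.6 ± 9.41 units at 0 h, while a dimmer probe set did not pass (log2 -0.62). Gadd45a, a damage response gene, rose by 1.14, with an adjusted p of 0.0502 without SHAM 0 h replicate 1 and of 0.0515 without TOL 0 h replicate 1. Another probe set of Gadd45a rose by 1.63, and its remaining ones did not pass (log2 1.10 and 0.77).

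**Figure D2:**
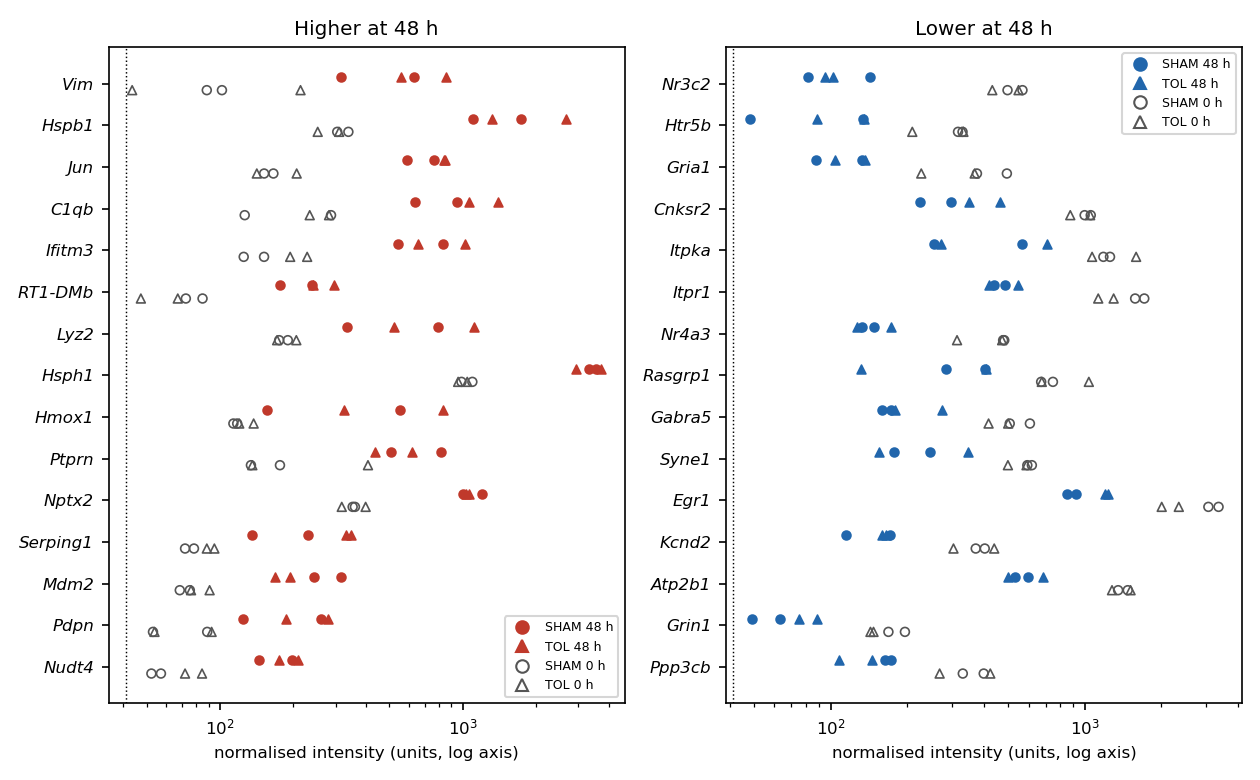
Normalised intensity in units (log axis) of the 15 largest rises (left) and 15 largest falls (right) among genes that passed, did not overlap between the times and lay above the noise level (dotted line, 41.1 units) on all 8 arrays. Each row has its 4 arrays at 48 h (filled) above its 4 arrays at 0 h (open), with circles for SHAM and triangles for TOL. Hsph1 at 48 h sits between 2943 and 3726 units, Itpr1 at 48 h between 418.8 and 543.7 units.

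Part of the markers of microglia, the resident macrophages of the brain, rose at 48 h, as did part of the complement and antigen presentation genes that these cells express when reactive. In these bulk samples, more cells of a type and more RNA per cell cannot be told apart. Of 20 tested microglia and macrophage markers 10 rose and 0 fell, with a median of 0.72 and with 7 rising with the day as a block. The count ran from 5 to 10 over the fits without 1 array, with at most 1 lower: it was 5 without replicate 1 of TOL at either time, and 6 without TOL 48 h replicate 2 or either SHAM array at 0 h. C1qb, a chain of the first complement component, had 947.9 and 635.0 units in SHAM and 1405 and 1059 units in TOL at 48 h, and 287.2 and 126.6 units in SHAM and 281.9 and 234.6 units in TOL at 0 h. It rose by 2.14 (SE 0.27, adjusted p = 0.0038), with no overlap of the times. Lysozyme (Lyz2) rose by 1.76 (SE 0.33, adjusted p = 0.0139), with 334.9 units in SHAM 48 h replicate 2 and 521.5 to 1120 units on the other 3 arrays at 48 h. Aif1 (Iba1), the most used marker protein of microglia, rose by 1.20 (SE 0.20, adjusted p = 0.00915). Ctsd, a lysosomal protease, rose by 0.99 (SE 0.14, adjusted p = 0.00649). Spp1 (osteopontin), a secreted protein of activated macrophages, had 774.4, 73.2, 681.7 and 634.3 units at 48 h, and 35.3, 31.5, 42.0 and 29.7 units at 0 h. It was at least 9.56-fold higher at 48 h (adjusted p = 0.0187), with 1 of 4 arrays at 0 h just above the noise level, and its adjusted p was 0.0575 without TOL 0 h replicate 1 and 0.0536 without TOL 48 h replicate 1.

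Of 20 tested genes of complement, antigen presentation and interferon response, 8 rose and 1 fell, with a median of 0.42 and with 5 rising and 0 falling with the day as a block. Over the fits without 1 array 6 to 8 rose and 0 to 1 fell. Ifitm3, an interferon-induced membrane protein, had 827.6 and 541.7 units in SHAM and 1028 and 656.0 units in TOL at 48 h, against 152.1 and 125.4 units in SHAM and 229.0 and 194.9 units in TOL at 0 h. Its rise of 2.12 (SE 0.20, adjusted p = 0.00127) passed with the day as a block as well (adjusted p = 0.007). RT1-DMb, the rat class II chain that loads peptides, rose by 1.82 (SE 0.22, adjusted p = 0.00355). The class I gene RT1-CE16 rose by 0.77 (SE 0.11, adjusted p = 0.00498), to 3610 ± 147 units at 48 h against 2126 ± 226 units at 0 h. RT1 genes are near-identical families, so their probe sets may not separate the members. Complement C3 was at 73.8 to 101.2 units at 48 h and below the noise level at 0 h on all 4 arrays, at least 2.16-fold higher (adjusted p = 0.00158). Serping1, the inhibitor of the first complement component, rose by 1.56 (SE 0.20, adjusted p = 0.00423), and the immunoproteasome subunit Psmb8, at the noise level on all 4 arrays at 0 h, was at least 1.68-fold higher (adjusted p = 0.0139). The gene that fell was RT1-Db1, a class II beta chain, named here after its values were seen, with 307.9 ± 27.2 units at 48 h and 436.4 ± 63.6 units at 0 h (adjusted p = 0.0495). Its adjusted p was 0.0623 to 0.132 without any 1 array other than TOL 0 h replicate 2.

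Of 27 tested genes of reactive glia, 2 of which are also on the microglia list, 12 rose and 0 fell, the highest median of the lists at 0.82, and 6 rose with the day as a block. The count ran from 5 to 12 over the fits without 1 array: it was 5 without SHAM 0 h replicate 1, and 6 without SHAM 0 h replicate 2 or TOL 0 h replicate 1. Vim (vimentin), an intermediate filament that astrocytes take up when reactive, had 630.2 and 316.6 units in SHAM and 857.5 and 559.5 units in TOL at 48 h, and 102.0 and 88.3 units in SHAM and 43.5 and 215.0 units in TOL at 0 h. It rose by 2.54 (SE 0.49, adjusted p = 0.0148), and its adjusted p with the day as a block was 0.0888. Tspo, an outer mitochondrial membrane protein used to image activated glia, had 377.7 and 173.6 units in SHAM and 751.6 and 472.6 units in TOL at 48 h, while 2 of its 4 arrays at 0 h lay below the noise level. It was at least 8.23-fold higher (adjusted p = 0.00257, and 0.0178 with the day as a block). Timp2, a metalloproteinase inhibitor, rose by 0.91 (SE 0.15, adjusted p = 0.00963, and 0.0528 with the day as a block). Anxa2, a membrane-binding protein of reactive glia, rose by 1.82, with an adjusted p of 0.0521 to 0.0594 without SHAM 0 h replicate 1, SHAM 0 h replicate 2 or TOL 0 h replicate 1. Hmox1 (heme oxygenase 1), Lcn2 (lipocalin 2) and Lgals3 (galectin 3) had a low value on the same array: SHAM 48 h replicate 2 had 156.0, -14.7 and 32.4 units for them, against 325.6 to 827.6, 361.3 to 895.4 and 240.3 to 338.4 units on the other 3 arrays at 48 h. Hmox1 was at 113.7 to 137.8 units at 0 h, and Lcn2 and Lgals3 lay below the noise level there. All 3 passed (adjusted p = 0.039, 0.0475 and 0.0489), and each passed in 1 of the 8 fits without 1 array, the one that left out SHAM 48 h replicate 2.

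That array stood apart for the whole list. The median of the reactive glia genes relative to their mean at 0 h was 0.08 on SHAM 48 h replicate 2 and 0.96 to 0.99 on the other 3 arrays at 48 h, against -0.03 to 0.01 at 0 h. Their summed level was 6340 units on SHAM 48 h replicate 2 and 9890 to 13600 units on the other 3, against 4190 to 4730 units at 0 h. For the microglia markers the medians were 0.25 on it and 0.68 to 0.81 on the others. The heat shock list did not show such a gap, with medians of 0.37 to 0.46 on the 4 arrays at 48 h, and neither did calcium handling, with -0.57 to -0.32. Without SHAM 48 h replicate 2 the counts of reactive glia and microglia genes were again 12 and 10.

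**Figure D3:**
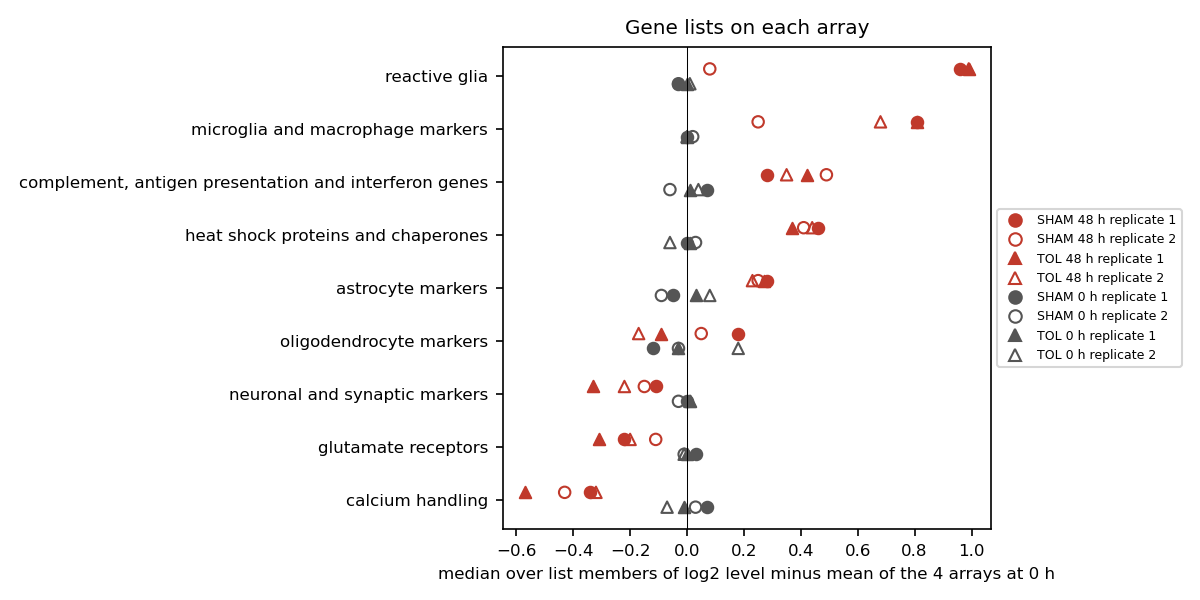
Median over the tested members of 9 gene lists of the log2 level on each array minus the mean of the 4 arrays at 0 h (horizontal axis). Red symbols are the 4 arrays at 48 h and grey ones the 4 arrays at 0 h, with circles for SHAM, triangles for TOL, filled for replicate 1 and open for replicate 2. SHAM 48 h replicate 2 lies at 0.08 for reactive glia, against 0.96 to 0.99 for the other arrays at 48 h.

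Of 17 tested astrocyte markers 4 rose and 0 fell (3 to 4 without 1 array, 2 with the day as a block), with a median of 0.18. Vim, given above with reactive glia, is one of the 4. Clu (clusterin), a secreted chaperone of astrocytes, rose by 0.54 (SE 0.10, adjusted p = 0.0143, and 0.0851 with the day as a block), to 5883 ± 445 units at 48 h against 4049 ± 499 units at 0 h. For Slc1a2, the main glutamate transporter of astrocytes, the probe sets disagreed: that with the highest mean rose by 1.11 (259.4 ± 23.4 units at 48 h and 122.2 ± 27.1 units at 0 h), another fell by 1.05 on the log2 scale (adjusted p = 0.0117) and the remaining one did not pass. Fabp7, a fatty acid binding protein of astrocytes and progenitors, was at 799.6 ± 45.4 units at 48 h and 481.9 ± 141 units at 0 h and passed (adjusted p = 0.0335), but among the fits without 1 array only in that without TOL 0 h replicate 1.

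Of 18 tested cytokine and chemokine genes, with their receptors and signalling proteins, 5 rose and 1 fell (3 to 6 and 1 without 1 array, 1 and 0 with the day as a block), with a median of 0.34. The count of 3 was reached without replicate 1 of TOL at either time. Of the rises only Cxcl10 was a cytokine or chemokine, at 67.3 ± 8.99 units at 48 h and 46.8 ± 1.03 units at 0 h. It was lost without SHAM 48 h replicate 2, replicate 1 of TOL at either time or either SHAM array at 0 h. The others were Ptgs2, Il6st and the signalling genes Nfkb1 and Nfkbia. Nfkb1 was lost without TOL 0 h replicate 1 or either TOL array at 48 h, and Nfkbia without SHAM 48 h replicate 1. Ptgs2 (cyclooxygenase 2), which makes prostaglandins, rose by 0.65 (SE 0.11, adjusted p = 0.0107), while its second probe set did not pass (log2 0.32). Il6st (gp130), the shared receptor chain of the interleukin 6 family, was at 71.0 to 84.6 units at 48 h and 25.4 to 55.3 units at 0 h, with 1 of 4 arrays at 0 h below the noise level. Its level was at least 1.64-fold higher at 48 h (adjusted p = 0.0111, and 0.0382 with the day as a block). Cx3cl1 (fractalkine), a neuronal chemokine whose receptor is on microglia, fell by 0.71 on the log2 scale (SE 0.12, adjusted p = 0.00964). It was at 1548 ± 238 units at 48 h and 2508 ± 65.3 units at 0 h.

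**Figure D4:**
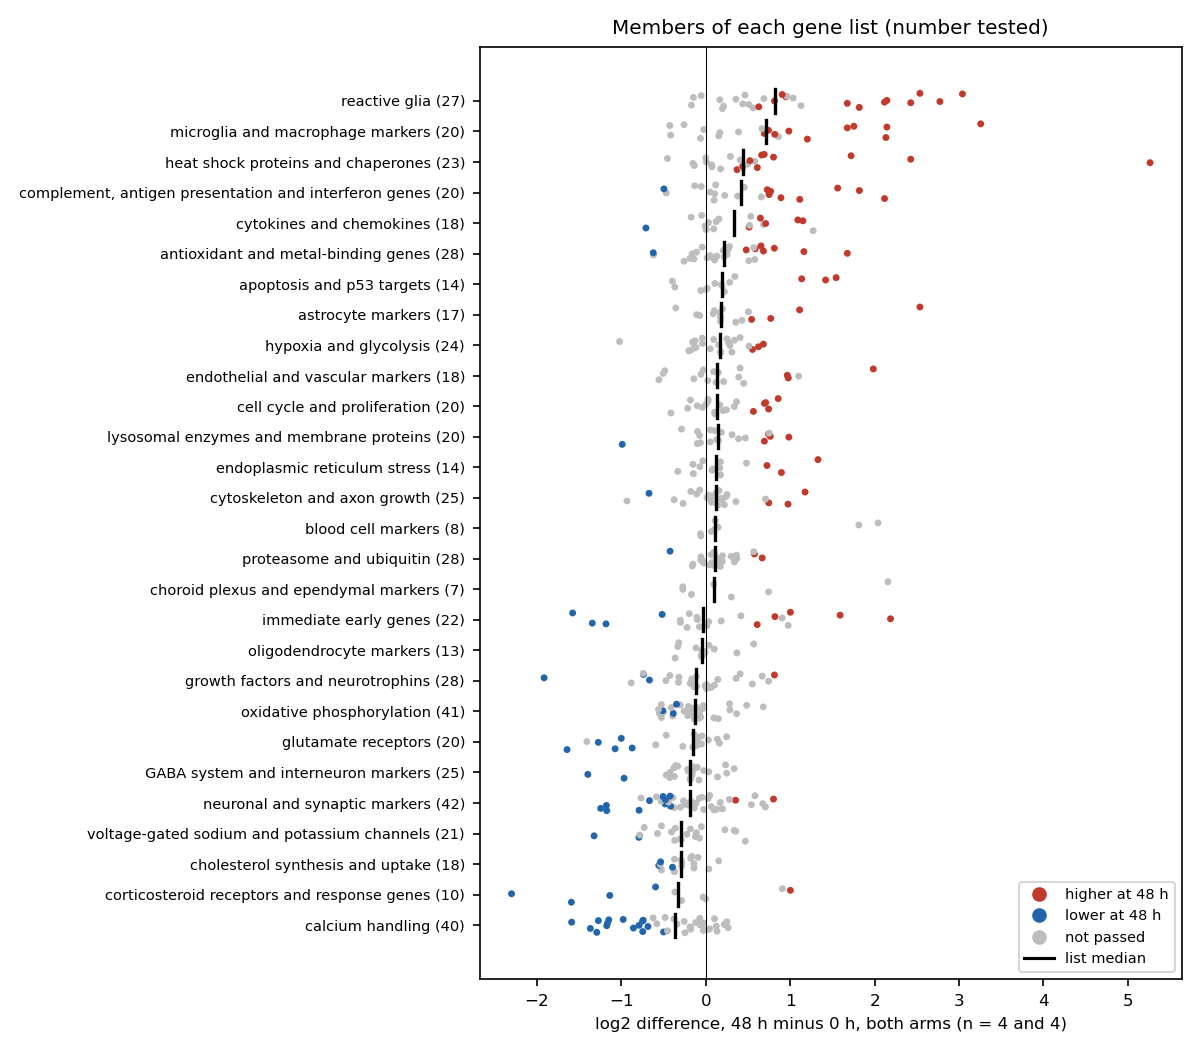
Log2 difference, 48 h minus 0 h, over both arms (4 arrays at each time) for each tested member of 28 gene lists, with the number tested in brackets and the lists ordered by their median (black bar). Red members were higher, blue ones lower at 48 h, and grey ones did not pass. The medians run from -0.36 (calcium handling) to 0.82 (reactive glia).

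The immediate early genes, which neurons switch on within minutes of activity or stress, were split at 48 h. Of 22 tested 5 rose and 4 fell (3 to 5 and 4 without 1 array, 2 and 2 with the day as a block), with a median of -0.03. The count of rises was 3 without any 1 array other than SHAM 48 h replicate 2. Jun, a subunit of the AP-1 transcription factor, had 764.3 and 592.0 units in SHAM and 848.8 and 838.6 units in TOL at 48 h, against 152.2 and 166.2 units in SHAM and 142.0 and 207.3 units in TOL at 0 h. It rose by 2.19 (SE 0.15, adjusted p = 0.000427). Nptx2 (neuronal pentraxin 2, or Narp), a secreted protein that gathers AMPA receptors at synapses, rose by 1.59 (SE 0.11, adjusted p = 0.000427), to 1001 to 1204 units at 48 h against 318.0 to 398.8 units at 0 h. Klf4, a zinc finger factor, rose by 0.82 (SE 0.15, adjusted p = 0.0132, and 0.0699 with the day as a block).

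Among those that fell was Egr1, the zinc finger factor also called Zif268, with 852.3 and 921.5 units in SHAM and 1236 and 1199 units in TOL at 48 h, against 3356 and 3060 units in SHAM and 2341 and 2005 units in TOL at 0 h. Its log2 difference was -1.34 (SE 0.21, adjusted p = 0.00769), and 2 of its other 3 probe sets fell too. The orphan nuclear receptor Nr4a3 had 147.3, 133.0, 127.0 and 172.7 units at 48 h and 476.5, 481.3, 472.2 and 313.8 units at 0 h, a log2 difference of -1.58 (SE 0.17, adjusted p = 0.00256). A dimmer probe set of Nr4a3 did not pass (log2 -0.41). Its relative Nr4a1 (Nur77), named after its values were seen, fell by 0.52 (SE 0.10, adjusted p = 0.014, and 0.0568 with the day as a block). Dusp6, the phosphatase that switches off the kinase ERK, fell by 1.18 (SE 0.22, adjusted p = 0.0133, and 0.0731 with the day as a block).

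Calcium that enters through glutamate receptors or leaves internal stores acts on calmodulin, kinases and phosphatases in hippocampal neurons, and its overload is a step in ischemic injury. Of 40 tested calcium handling genes 15 fell and 0 rose, with a median of -0.36, and 7 fell with the day as a block. Over the fits without 1 array 10 to 16 fell, and at most 1 rose. The count of 10 was reached without either SHAM array at 0 h. For these falls and those of the neuronal lists below, fewer cells of a type and less RNA per cell cannot be told apart in these bulk samples. Itpr1, the inositol trisphosphate receptor that releases calcium from the endoplasmic reticulum, had 439.8 and 482.8 units in SHAM and 418.8 and 543.7 units in TOL at 48 h. At 0 h it had 1576 and 1712 units in SHAM and 1297 and 1128 units in TOL, a log2 difference of -1.59 (SE 0.15, adjusted p = 0.00121, and 0.0132 with the day as a block). Every array at 48 h was below every array at 0 h. Of the 2 dimmer probe sets of Itpr1, 1 was also lower, with means of -6.43 units at 48 h, below the noise level, and 142.0 units at 0 h, and the other did not pass (log2 0.11).

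Atp2b1, a calcium pump of the plasma membrane, was at 576.8 ± 81.0 units at 48 h and 1404 ± 108 units at 0 h (log2 -1.29, SE 0.13, adjusted p = 0.00171). Prkcb, the beta isoform of protein kinase C, was at 1171 ± 130 units at 48 h and 2594 ± 281 units at 0 h (log2 -1.15, SE 0.13, adjusted p = 0.00286), and all 3 of its probe sets fell. The catalytic subunits of calcineurin, the calcium-dependent phosphatase, fell together: Ppp3cb by 1.27 (SE 0.18, adjusted p = 0.00595) and Ppp3ca by 0.75 (SE 0.09, adjusted p = 0.00355) on the log2 scale. Hpca (hippocalcin), a calcium sensor abundant in pyramidal cells, fell by 1.16 (SE 0.18, adjusted p = 0.00693). Camk2a, the alpha subunit of calcium/calmodulin kinase II, was low on this array, with 33.0 to 75.3 units at 48 h and 84.6 to 139.9 units at 0 h. It was at least 2.25-fold lower at 48 h (adjusted p = 0.0165, and 0.0791 with the day as a block). The beta subunit Camk2b, at 2487 ± 465 units at 48 h and 4248 ± 385 units at 0 h, fell by 0.79, with an adjusted p of 0.0595 without SHAM 0 h replicate 1 and of 0.0652 without SHAM 0 h replicate 2. Itpka, the kinase that removes inositol trisphosphate, fell by 1.62 (SE 0.35, adjusted p = 0.0218), with 255.2, 566.4, 272.5 and 709.8 units at 48 h and 1067 to 1590 units at 0 h. Its adjusted p was 0.0585 to 0.0617 without SHAM 0 h replicate 1, SHAM 0 h replicate 2 or SHAM 48 h replicate 1.

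Of 20 tested glutamate receptor genes 5 fell and 0 rose (5 to 7 fell without 1 array, 3 with the day as a block), with a median of -0.15. They were 3 of the AMPA subunits, which carry fast excitation, and 2 of the NMDA subunits, which admit calcium. Gria1 had 87.1 and 132.6 units in SHAM and 104.0 and 135.9 units in TOL at 48 h, against 492.9 and 375.8 units in SHAM and 368.2 and 226.9 units in TOL at 0 h. Its log2 difference was -1.64 (SE 0.25, adjusted p = 0.00693, and 0.0447 with the day as a block), and a second probe set fell by 1.73. Gria2, the subunit that keeps AMPA receptors impermeable to calcium, had 413.0, 444.4, 467.7 and 534.2 units at 48 h and 1034, 929.1, 1091 and 858.7 units at 0 h. It fell by 1.07 (SE 0.12, adjusted p = 0.00299, and 0.0274 with the day as a block). Gria3 fell by 0.87 (SE 0.15, adjusted p = 0.00963, and 0.0633 with the day as a block). Grin1, the NMDA subunit that every such receptor needs, had 49.1 to 88.0 units at 48 h and 143.2 to 195.7 units at 0 h, a log2 difference of -1.27 (SE 0.20, adjusted p = 0.00762). A dimmer probe set of Grin1 did not pass (log2 0.39). Grin3a, with 1 of 4 arrays at 48 h below the noise level, was at least 2.00-fold lower (adjusted p = 0.0107, and 0.0628 with the day as a block).

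Of 25 tested genes of the GABA system and interneurons 2 fell and 0 rose (2 to 3 fell without 1 array, 2 with the day as a block), with a median of -0.18. This share of 8.0% lay near the 6.95% of all genes tested that fell. Gabra5, the GABA-A receptor subunit typical of hippocampal pyramidal cells, had 158.8 and 171.9 units in SHAM and 273.7 and 178.6 units in TOL at 48 h, against 607.3 and 505.8 units in SHAM and 417.6 and 498.8 units in TOL at 0 h (log2 -1.40, SE 0.20, adjusted p = 0.006). The neuropeptide cholecystokinin (Cck) fell by 0.97 (SE 0.13, adjusted p = 0.00465), to 623.5 ± 135 units at 48 h against 1199 ± 71.4 units at 0 h. Of 21 tested voltage-gated sodium and potassium channels 2 fell and 0 rose (1 to 5 fell without 1 array, 1 with the day as a block), with a median of -0.29. Kcnd2, which carries the A-type potassium current of dendrites, fell by 1.32 (SE 0.17, adjusted p = 0.00434). The other, Kcnc2, a channel of fast-spiking cells, fell by 0.79, with an adjusted p of 0.0646 to 0.111 in the 6 fits without 1 array where it was lost, and it passed without SHAM 48 h replicate 1 or TOL 0 h replicate 2.

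Of 42 tested neuronal and synaptic markers 10 fell and 2 rose, with a median of -0.18, and 2 fell and 0 rose with the day as a block. Camk2a and Camk2b, given above, are among the 10 that fell. The falls ran from 3 to 11 over the fits without 1 array: 3 without SHAM 0 h replicate 1, 4 without SHAM 0 h replicate 2 or TOL 48 h replicate 1, and 5 without TOL 0 h replicate 1 or either SHAM array at 48 h. Ncam1, an adhesion protein of neurons, was at 210.0 ± 31.8 units at 48 h and 474.5 ± 71.3 units at 0 h (log2 -1.18, SE 0.16, adjusted p = 0.00471). Stx1a (syntaxin 1A), part of the machinery that fuses synaptic vesicles, fell by 0.67 (SE 0.11, adjusted p = 0.01, and 0.0581 with the day as a block), while its second probe set did not pass (log2 0.20, with means of 362.8 units at 48 h and 310.9 units at 0 h). The 2 that rose were the vesicle proteins Syn2 and Sv2a, named after their values were seen, at 0.80 and 0.35 (adjusted p = 0.0424 and 0.046). Syn2 passed in 1 of the 8 fits without 1 array (that without TOL 0 h replicate 2), with an adjusted p up to 0.111 in the others, and Sv2a in none, with 0.0669 to 0.12. The 2 other probe sets of Syn2 did not pass (log2 -0.33 and 0.03).

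Receptors for corticosteroids, of which the hippocampus is the main brain site, were lower at 48 h. Nr3c2, the mineralocorticoid receptor, had 81.7 and 143.0 units in SHAM and 102.1 and 95.0 units in TOL at 48 h, against 567.7 and 495.8 units in SHAM and 547.9 and 431.9 units in TOL at 0 h. Its log2 difference of -2.30 (SE 0.18, adjusted p = 0.00071, and 0.007 with the day as a block) was the largest fall among the genes that passed and lay above the noise level on all 8 arrays, and its dimmer second probe set did not pass (log2 -0.59). Nr3c1, the glucocorticoid receptor, had 71.4, 59.0, 49.5 and 40.8 units at 48 h, the last of them below the noise level, and 106.5 to 130.4 units at 0 h. It was at least 2.20-fold lower (adjusted p = 0.00522). In the list of corticosteroid receptors and response genes, 4 of 10 tested fell and 1 rose (2 to 4 and 0 to 2 without 1 array, 3 and 0 with the day as a block), with a median of -0.33. The count of falls was 2 without SHAM 0 h replicate 2, TOL 0 h replicate 1, SHAM 48 h replicate 1 or either TOL array at 48 h. Besides Nr3c2 and Nr3c1, the falls were the circadian factors Dbp and Tef, at 88.9 ± 89.2 and 372 ± 107 units at 48 h. At 0 h they were at 284 ± 84.3 and 545 ± 36.3 units. The rise was Sgk1, a response gene, at 837 ± 301 units at 48 h and 403 ± 89.7 units at 0 h. Without 1 array, Dbp and Sgk1 passed only without SHAM 48 h replicate 2, and Tef only without that array or SHAM 0 h replicate 1. Of the 7 tested markers of hippocampus 4 fell (3 to 4 without 1 array, 2 with the day as a block): Hpca, Nr3c2 and Camk2a, given above, and Neurod1, a transcription factor of granule cells. Neurod1 was at 230.5 ± 47.7 units at 48 h and 388.3 ± 63.6 units at 0 h (adjusted p = 0.039, and 0.0731 to 0.106 in the 6 fits without 1 array where it was lost), and it passed without replicate 2 of TOL at either time. By their brightest probe sets, none of 4 markers of striatum and 5 of thalamus and hypothalamus passed in limma, with 0 and 1 at an unadjusted p under 0.05. A second probe set of Trh, of the thalamus and hypothalamus list, was lower (log2 -0.63, adjusted p = 0.0301). It had means of 56.7 units at 48 h and 99.7 units at 0 h. So was a second probe set of the hippocampus marker Nrgn, with 2629 units at 48 h and 3677 units at 0 h (log2 -0.49, adjusted p = 0.026).

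Genes of defence against oxidants rose in part: of 28 tested antioxidant and metal-binding genes 7 rose and 1 fell, with a median of 0.21, and 2 rose and 0 fell with the day as a block. The rises ran from 3 to 6 over the fits without 1 array: 3 without either SHAM array at 0 h and 4 without SHAM 48 h replicate 1. Nqo1, a quinone reductase induced through the factor Nrf2, was at 191.8 ± 12.9 units at 48 h and 86.9 ± 18.6 units at 0 h (log2 1.16, SE 0.15, adjusted p = 0.00445). Peroxiredoxin 1 (Prdx1) rose by 0.68 (SE 0.11, adjusted p = 0.0079). Superoxide dismutase 1 (Sod1) rose by 0.59 (SE 0.09, adjusted p = 0.00816, and 0.0557 with the day as a block), to 2325 ± 127 units at 48 h against 1549 ± 51.9 units at 0 h. Mgst1, a membrane-bound glutathione transferase, was at 143.5 to 267.0 units at 48 h and below the noise level on 3 of 4 arrays at 0 h, at least 4.11-fold higher (adjusted p = 0.00299).

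Of 20 tested genes of the cell cycle 5 rose and 0 fell, with a median of 0.14, and 1 rose with the day as a block. Over the fits without 1 array the count ran from 1 to 5: 1 without SHAM 0 h replicate 2, TOL 0 h replicate 1 or either SHAM array at 48 h, and 2 without SHAM 0 h replicate 1 or TOL 48 h replicate 1. Mcm6, a subunit of the replication helicase, rose in all of them by 0.70 (SE 0.11, adjusted p = 0.00693), with 141.7 to 169.7 units at 48 h and 90.2 to 108.9 units at 0 h. Of 25 tested genes of the cytoskeleton and axon growth 3 rose and 1 fell (2 to 4 and 1 to 2 without 1 array, 1 and 1 with the day as a block), with a median of 0.12. The tropomyosins, which line actin filaments, went opposite ways. Tpm4 rose by 1.18 (SE 0.10, adjusted p = 0.000979), to 391.8 ± 33.9 units at 48 h against 172.9 ± 7.57 units at 0 h, while a dimmer probe set did not pass (log2 -0.71). Tpm1 fell by 0.67 (SE 0.10, adjusted p = 0.00604), to 389.1 ± 25.5 units at 48 h against 621.0 ± 61.3 units at 0 h, with another of its 5 probe sets falling too and 3 not passing, of which 2 had differences above 0 (0.25 and 0.44). Of 18 tested endothelial and vascular markers 3 rose and 0 fell (2 to 3 rose without 1 array, 0 with the day as a block), with a median of 0.14. The actin-binding protein transgelin (Tagln), a marker of smooth muscle, was at 83.3 to 322.5 units at 48 h and below the noise level on 3 of 4 arrays at 0 h, at least 3.96-fold higher (adjusted p = 0.0131, and 0.0712 with the day as a block). The smooth muscle myosin light chain Myl9 rose by 0.97 (adjusted p = 0.0133, and 0.0703 with the day as a block).

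In the remaining lists few members passed, where 7.89% of all genes tested rose and 6.95% fell. The proteasome and ubiquitin list (7.14% rose) and the oxidative phosphorylation list (7.32% fell) lay near these shares. Of 28 tested growth factors and neurotrophins 1 rose and 3 fell (0 to 1 and 1 to 3 without 1 array, 0 and 0 with the day as a block), with a median of -0.11, and 1 fell without TOL 0 h replicate 1, TOL 48 h replicate 1 or either SHAM array at 0 h. Among them was Ptn (pleiotrophin), a heparin-binding growth factor. It fell by 0.74 (SE 0.14, adjusted p = 0.0143, and 0.0826 with the day as a block). Of 24 tested genes of hypoxia and glycolysis 3 rose and 0 fell (1 to 3 and 0 to 1 without 1 array, 0 and 0 with the day as a block), with a median of 0.16, and 1 rose without SHAM 0 h replicate 2, TOL 48 h replicate 1 or either SHAM array at 48 h. Of these, P4ha1, a collagen prolyl hydroxylase, rose by 0.63 (SE 0.11, adjusted p = 0.0114, and 0.0706 with the day as a block). Of 20 tested lysosomal genes 4 rose and 1 fell (3 to 6 and 1 without 1 array, 2 and 1 with the day as a block), with a median of 0.14. The cathepsin Ctsh rose by 0.77 (adjusted p = 0.00847), and the acid phosphatase Acp2 fell by 0.99 (SE 0.10, adjusted p = 0.00223). Apart from Ctsh, the lysosomal genes that rose, Ctsd among them, are also on the microglia and macrophage list. Of 28 tested proteasome and ubiquitin genes 2 rose and 1 fell (1 to 2 and 0 to 1 without 1 array, 1 and 0 with the day as a block), with a median of 0.11, of which Psmc4, an ATPase of the proteasome cap, rose by 0.67 (SE 0.09, adjusted p = 0.00474). Of 41 tested genes of oxidative phosphorylation 3 fell and 0 rose (0 to 7 fell without 1 array, 0 with the day as a block), with a median of -0.13. The count was 7 without TOL 0 h replicate 2, 5 without TOL 48 h replicate 2 and 0 without any other array. Of 18 tested genes of cholesterol synthesis and uptake 3 fell and 0 rose (0 to 2 fell without 1 array, 0 with the day as a block), with a median of -0.29. The count was 0 without SHAM 0 h replicate 1, TOL 0 h replicate 1 or SHAM 48 h replicate 1, and 1 without TOL 48 h replicate 2 or replicate 2 of SHAM at either time.

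Other cells that a hippocampal dissection could hold were followed by their markers. None passed of 13 oligodendrocyte markers (median -0.05), 7 markers of choroid plexus and ependyma (median 0.10) and 8 blood cell markers (median 0.11), with limma at an adjusted p under 0.05 and all 8 arrays. Of the blood cell markers 2 were higher without SHAM 48 h replicate 2, on the deposited scale and over 24 arrays with or without the day, 1 with the replicate block or with each array divided by its median, and 0 in the 7 other fits without 1 array and with the day as a block. Of the oligodendrocyte markers 1 was higher without replicate 2 of TOL at either time and 0 in the 6 other fits without 1 array, 1 was higher and 1 lower over 24 arrays without the day, and 1 was lower with each array divided by its median. At an unadjusted p under 0.05, 2 of the oligodendrocyte, 0 of the choroid plexus and 2 of the blood cell markers passed. The choroid plexus marker Ttr (transthyretin) varied widely within both times: it had 5293, 3126, 5224 and 1202 units at 48 h and 527.5, 51.9, 2089 and 4577 units at 0 h. The summed level of the choroid plexus list was 2640 to 7620 units at 48 h and 1490 to 6710 units at 0 h. The neutrophil gene S100a8 had 325.2, 79.5, 422.3 and 144.1 units at 48 h and 72.4, 69.8, 12.0 and 49.5 units at 0 h (adjusted p = 0.0528). Its partner S100a9 had 382.1, -2.83, 458.1 and 114.1 units at 48 h and less than the noise level on all 4 arrays at 0 h (adjusted p = 0.0843). Both were highest on SHAM 48 h replicate 1 and TOL 48 h replicate 1, and the summed level of the blood cell list was 4380 to 6620 units at 48 h and 3680 to 5490 units at 0 h. The part of these cells in the results above was not tested.

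Some of the largest changes lay outside the lists. Cnksr2, a scaffold of the postsynaptic density, fell by 1.62 (SE 0.19, adjusted p = 0.0033), with 223.6, 296.0, 349.6 and 461.1 units at 48 h and 875.5 to 1054 units at 0 h, while of its dimmer probe sets 1 fell by 0.82 and 1 did not pass (log2 0.00). Syne1, a very large protein that links the nucleus to the cytoskeleton, fell by 1.38 (SE 0.25, adjusted p = 0.013, and 0.078 with the day as a block). Nell1, a secreted protein related to thrombospondin, lay below the noise level on 2 of 4 arrays at 48 h and at 46.6 and 47.4 units on the others, against 155.6 to 251.0 units at 0 h. It was at least 4.65-fold lower at 48 h (adjusted p = 0.000427). Lin7b, a scaffold that sorts membrane proteins in neurons, lay below the noise level on all 4 arrays at 48 h and at 115.1 to 156.3 units at 0 h. It was at least 3.28-fold lower at 48 h (adjusted p = 0.000427). The serotonin receptor Htr5b fell by 1.64 (adjusted p = 0.0208), with 47.9 to 135.5 units at 48 h and 209.2 to 332.4 units at 0 h. Its adjusted p was 0.0548 to 0.0652 without SHAM 0 h replicate 1, SHAM 0 h replicate 2 or TOL 48 h replicate 1. Nudt4, a diphosphoinositol phosphatase, rose by 1.46 (SE 0.15, adjusted p = 0.00171), with 144.6 to 209.8 units at 48 h and 52.2 to 84.4 units at 0 h.

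The other 4 times show where 48 h stands in the course. From 1 to 24 h all SHAM arrays were of the first hybridisation day and all TOL arrays of the second, unlike at 0 and 48 h. Both TOL arrays at 24 h carried the aborted fluidics record too. The part of either in the courses was not tested. For 158 of the 259 genes that rose (61.0%) the mean over both arms was highest at 48 h, and for 154 of the 228 that fell (67.5%) it was lowest at 48 h. Over all 3282 genes 48 h was highest for 22.0% and lowest for 22.8%, but genes picked for their value at 48 h are bound to stand out there. The highest mean lay at 24 h for 69 of the rising genes, at 12 h for 22, at 3 h for 7 and at 1 h for 3. Hspa1a belonged to these: its mean was 17.0 units at 0 h, 2507 at 1 h, 2633 at 3 h, 5071 at 12 h, 4317 at 24 h and 1581 at 48 h. Hsph1 likewise had its highest mean, 6314 units, at 24 h and 3384 units at 48 h. Jun was at 1067 units at 1 h, 567.1 at 12 h and 760.9 at 48 h. C1qb stayed at 229.5 to 423.8 units from 1 to 24 h and stood at 1012 units at 48 h, and Ifitm3 stood at 204.2 to 340.0 units over those times and at 763.3 units at 48 h.

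Among the falls, Itpr1 was lower at each later time, with means of 1428, 1183, 1118, 876.9, 599.7 and 471.3 units at 0, 1, 3, 12, 24 and 48 h, and the same order in each arm. Nr3c2 had means of 510.8 units at 0 h, 194.8 at 12 h, 118.9 at 24 h and 105.5 at 48 h. Gria1 was at 366.0 units at 0 h, 105.0 at 24 h and 114.9 at 48 h, so that its mean at 24 h was as low as that at 48 h. Egr1 followed another course: it stood at 2690 units at 0 h, 5986 at 1 h, 1370 at 12 h, 997.0 at 24 h and 1052 at 48 h, above its level at 0 h first and below it from 12 h on. These means of 4 arrays are given as a description, without a test between the later times.

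**Figure D5:**
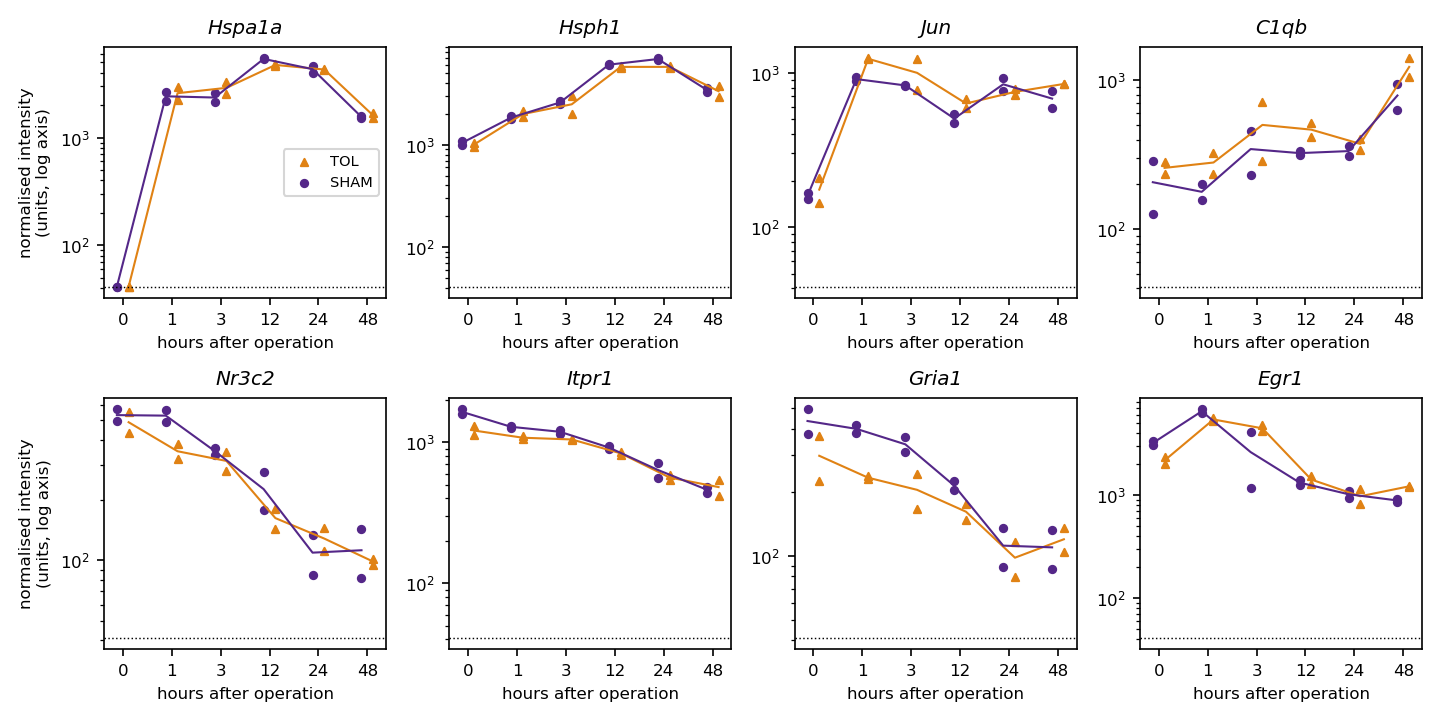
Normalised intensity in units (log axis) of 8 genes, chosen after their values were seen, over hours after the operation (0 to 48 h, evenly spaced). Points are single arrays (2 for each arm and time), lines join arm means, TOL is drawn in orange triangles and SHAM in purple circles, and values under the noise level (dotted line, 41.1 units) are drawn at it. Hspa1a is at the noise level at 0 h and highest at 12 h, C1qb is highest at 48 h, and Itpr1 is lower at each later time.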

How the data were processed

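The authors deposited 1 table of 8799 probe sets by 24 arrays. Its values were read as linear, background-subtracted intensities from their range (21.9 to 24.5% at or below 0 and medians of 51.6 to 85.6 units per array), and the software and scaling behind the deposited intensities are not stated in the labels or files used. Chip type, hybridisation day and fluidics record came from the experiment records. Groups came from the array titles. No 2 arrays held identical values.

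The 59 Affymetrix controls were left out, and values were quantile normalised over the 24 arrays. The noise level is the value under which 99% of the values of probe sets averaging 0 or less lay (1978 probe sets). Values were set to at least 41.1 units and log2 was taken. Probe sets above it on both arrays of at least 1 of the 4 groups were tested with limma 3.58.1 in R 4.3.3 (lmFit, eBayes, time and arm as terms, two-sided, Benjamini-Hochberg over 5410 probe sets, threshold 0.05). Every adjusted p in the text is from limma. The tests of the interaction and of each arm alone came from a fit with an arm by time term added and 1 spread over both arms. Fits named with the day as a block or without some arrays changed the terms or arrays as said. Residual degrees of freedom were 5, and the number of arrays limits the precision. A noise-level floor was used in place of the 25th percentile of all values (3.49 units), which lies within the noise and is kept as an alternative.

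Symbols came from the platform annotation: 7006 probe sets had 1 symbol, 308 several and 1426 none. A gene with several tested probe sets was read from the one that was brightest on average over the 8 arrays. Genes that rose had 96 other tested probe sets, of which 85 had the same sign and 38 (39.6%) rose too. Genes that fell had 115, of which 100 had the same sign and 42 (36.5%) fell too. Not all of these are given with the genes above. Named genes were the 15 largest rises and 15 largest falls above noise and without overlap, the 10 largest each way as lower bounds, up to 6 members of each list by smallest p, and the 5 smallest p of the interaction, with some left out for length and exceptions stated. The comparison and the gene lists were chosen with earlier results of these data known.

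On simulated data for this comparison over 5410 probe sets, 13.4% of log2 changes of 0.5, 83.6% of changes of 1 and 100% of changes of 2 were recovered, with 7 false calls. At each size 66 or 67 probe sets were changed. The simulated noise was normal and independent, with no difference between days and no floor, so these figures may not hold for the real arrays. Alternatives changed the normalisation, floor, filter, samples in the fit, variance model, replicate block, hybridisation day and arm term, and left out each array in turn. The fits within a day, with the day over 24 arrays and without the arrays with an aborted record, and the list counts under other settings, were added after the data were seen.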

Additional observations from a re-analysis of the deposited data

Results flagged for a closer look

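The 96 named genes at each time gave 192 sets of 4 arrays, with Dbp, Tef, Sgk1, Cxcl10, Nfkb1, Nfkbia and Trh left out. In 7 of the sets 1 array lay apart from the other 3 by more than Dixon's 95% critical value of 0.829 for the gap over the range. Chance gives such a gap for about 1 set in 20. At 48 h, Ctsd had 1013 units on SHAM 48 h replicate 1, against 691.1 to 739.0 units on the other 3 arrays, and Myl9 had 195.3 units on SHAM 48 h replicate 2, against 143.9 to 149.9 units. At 0 h, Nr4a3 had 313.8 units on TOL 0 h replicate 2, against 472.2 to 481.3 units, and Htr5b had 209.2 units on TOL 0 h replicate 1, against 316.6 to 332.4 units. Tagln had 44.1 units on TOL 0 h replicate 2, against 10.7 to 14.7 units. C3 had -4.41 units and Lcn2 -28.8 units on SHAM 0 h replicate 2, against 14.7 to 17.8 units for C3 and -59.8 to -56.6 units for Lcn2, all below the noise level.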

How the results depend on the processing

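Against the 869 probe sets (454 higher and 415 lower at 48 h), other settings called in all 282 (147 and 135) on the deposited scale, 478 (247 and 231) with no filter, 1602 (800 and 802) with 12 group means over 24 arrays, 243 (144 and 99) with the hybridisation day as a block, 293 (150 and 143) without the 2 arrays with an aborted record, and 0 (0 and 0) within the first or the second day, where 1 residual degree of freedom remained. Of these, 263, 436, 821, 234 and 216 in turn were among the 869 in the first 5 settings. With the floor at the 25th percentile 593 passed, 275 of them lower. Dividing each array by its median called 959, with 364 higher and 595 lower. Without 1 array the counts ran from 416 to 1075 (227 to 549 higher, 186 to 526 lower), with 416 reached without SHAM 0 h replicate 2. In TOL alone 196 passed, and 120 with the lower floor, 645 over 24 arrays and 3 to 114 without 1 array. In SHAM alone 476 passed, and 231, 1109 and 3 to 552. A fit with 1 array left in a group assumes that it varies like the others. The interaction of arm and time called 0 probe sets, but 2 on the deposited scale, 7 with quantiles over 8 arrays, 16 with the lower floor, 4 with a pseudocount, 9 with no filter, 12 over 24 arrays and 12 over 24 arrays with the day. The cause of these shifts was not tested. The replicate numbers were not taken as pairs, since the study methods were not given. Deviations of same-numbered arrays correlated at -0.072 to 0.138. With the replicate block 754 passed, 301 in SHAM alone and 93 in TOL alone. The counts of named genes and the changes of sign below leave out Dbp, Tef, Sgk1, Cxcl10, Nfkb1, Nfkbia and Trh. Of the 88 named genes that passed, 62 passed with the day as a block, 45 without the aborted arrays, 77 with the lower floor and 73 to 83 without 1 array. Only genes that did not pass changed sign: the log2 difference of Hspe1 (-0.101 within the first day, -0.091 without the aborted arrays), the log2 difference of Chordc1 (-0.098 and -0.061), the log2 difference of Ttr (-0.869 within the second day), the log2 difference of Drd1 (0.019 with the lower floor, 0.065 within the first day, 0.147 without the aborted arrays) and the log2 difference of Syt5 (-1.272 to 0.101 without 1 array, above 0 without replicate 2 of TOL at 0 h or replicate 1 of TOL at 48 h, 1.88 within the first day, 1.96 without the aborted arrays).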
